A study of Homo sapiens with 8 samples.

Results

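The genes described here encode chromatin modifiers and remodelers: 58 genes among the 48405 gene rows of each deposited table. They were taken by name alone and not by their values. They comprise 14 SWI/SNF and ISWI genes (SMARC genes with ARID1A, ARID1B and ARID2), 15 lysine demethylase genes (KDM), 11 histone deacetylase genes (HDAC), 7 sirtuin genes (SIRT), 4 genes of Polycomb repressive complex PRC2 (EZH1, EZH2, SUZ12, EED), 4 DNA methyltransferase genes (DNMT) and 3 TET genes. Each gene had 1 row in each table. The rows of ARID1B, HDAC10, HDAC9 and SMARCE1 also carried the name of another gene (RP11-230C9.2, MAPK12, AC010082.1 and KRT222), so that their values may hold fragments of both.

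The samples were HCC4006 and HCC827, established lung adenocarcinoma lines of non-small cell lung cancer (NSCLC) that carry activating mutations of EGFR. Each line was studied as a passage control grown with DMSO, the solvent, and as a culture adapted until it could be kept in 3 µM gefitinib, an inhibitor of the EGFR kinase. All cultures grew in RPMI-1640 with fetal bovine serum, and fingerprinting was reported to match each resistant culture to its control. Polyadenylated RNA was sequenced in 2 libraries per group, 8 in all, named A and B after the columns of the tables. Each resistant group comes from 1 adapted culture as far as the labels say. The labels do not say whether the paired libraries of a group are separate cultures, and p-values therefore measure only the spread between these libraries, which may be technical. Resistance and the presence of the drug cannot be told apart in this design, nor can fewer cells of a type and less RNA per cell.

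Chromatin remodelers of the SWI/SNF and ISWI classes use an ATPase to slide, space or evict nucleosomes. Histone deacetylases, sirtuins, lysine demethylases and PRC2 remove or place marks on histone tails. DNA methyltransferases methylate cytosine at CG sites, and TET enzymes oxidise that methyl group. These families are known in cancer both for recurrent mutations and for their part in drug-tolerant states, in which cells survive a targeted inhibitor without a new mutation of its target.

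Levels are FPKM, in which fragments are divided by transcript length and library size, so that genes can be set side by side within a table. A change is the resistant mean less the DMSO mean of log2(FPKM + 0.5), from limma. A gene was called at a Benjamini-Hochberg adjusted p below 0.05 over all rows of the fit. In the libraries between 17406 and 19333 rows lay above 0, with a median of 53.6 to 59.0 FPKM, and the depth is unknown. This median is high for FPKM, and a further scaling of the values before deposit is possible. Between libraries A and B of a group the median absolute difference over all rows above 0 was 0.57 on the log2 scale in HCC4006 DMSO, 0.22 in HCC4006 resistant, 0.38 in HCC827 DMSO and 0.55 in HCC827 resistant cells. Epithelial lung markers summed to between 9503 and 15844 FPKM in HCC4006 DMSO libraries and to between 1629 and 1802 FPKM in the resistant ones, with 4 of 5 called lower. The same sum ran from 15136 to 16039 FPKM in HCC827 DMSO and from 10502 to 17492 FPKM in HCC827 resistant libraries, with 0 of 5 called, 1 at an unadjusted p under 0.05. The leukocyte and lymphocyte genes PTPRC, CD3E and MS4A1 were at 0 in all 8 libraries. Sums of the immune list were 12.7 to 66.0 FPKM, those of the endothelial list 0 to 4.08 FPKM and those of the fibroblast list 13.4 to 122 FPKM. PDGFRB, whose row also names AC005895.3, was called higher and CSF1R lower in HCC4006. In HCC827 only 1 immune, 0 endothelial and 1 fibroblast gene passed the filter on low values, and none was called. The fibroblast gene, COL1A1, was at 42.6 and 50.9 FPKM in DMSO and at 13.4 and 18.1 FPKM in resistant cells. Its log2 change was −1.55, at an unadjusted p under 0.05 in limma. The part of the epithelial markers' loss in the HCC4006 results was not tested.

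Several members were listed at 0 in whole groups. DNMT3L, HDAC2 and KDM4A stood at 0 in all 8 libraries, and 49 of the 58 genes were above 0 in all 8. A 0 in these tables can be a failed estimate. HDAC2, a deacetylase of most cell types, is 1 of 9 rows on its locus, and the 8 others were at 0 in every library too. Such a gene is therefore only said to be listed at 0, and no fold change is given against it.

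**Figure D1:**
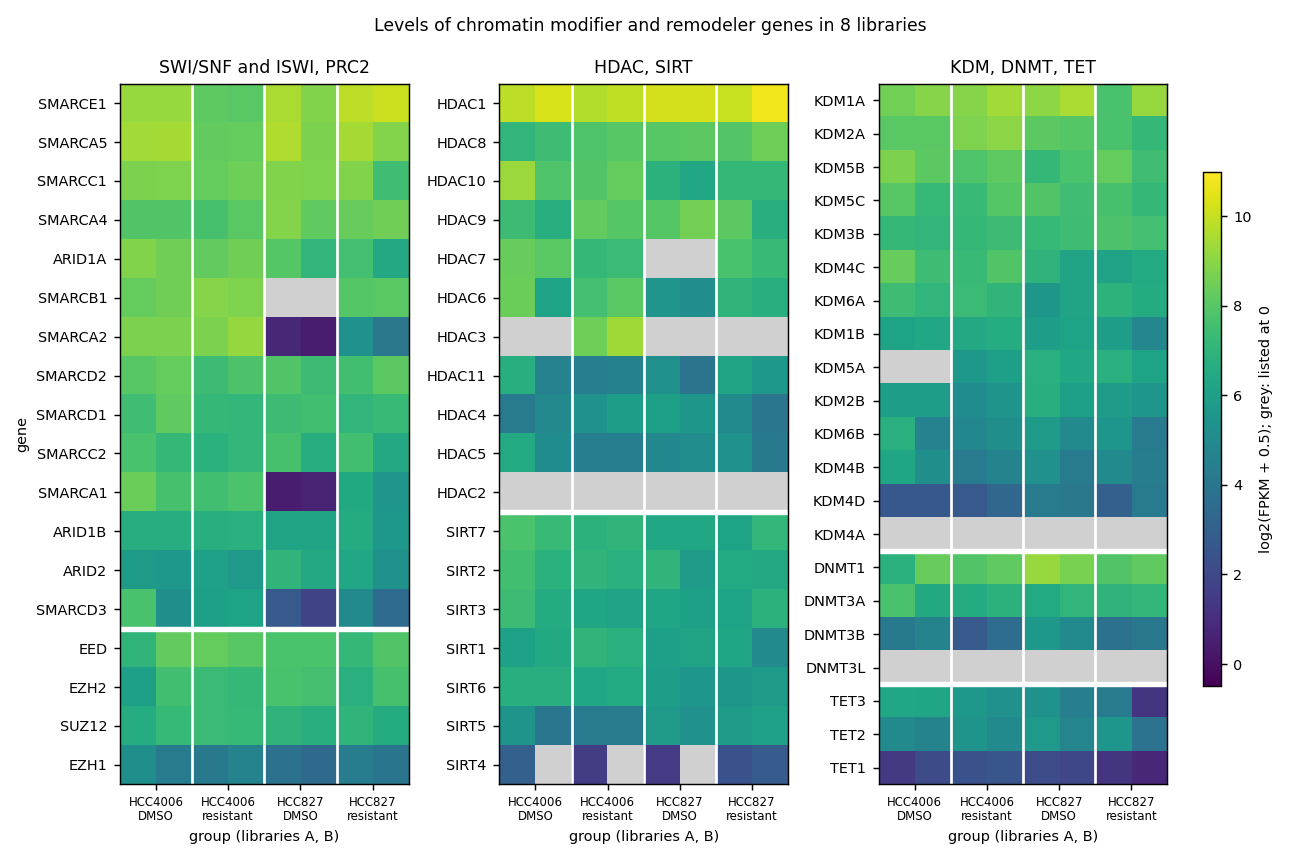
Levels of 57 of the 58 genes in the 8 libraries, as colour on a scale of log2(FPKM + 0.5), with families separated by white lines and grey cells for values listed at 0. KDM5D, which lies on the Y chromosome, is counted but not drawn. SMARCA1 and SMARCA2 are dark in the HCC827 DMSO columns, and HDAC2, KDM4A and DNMT3L are grey throughout.

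Of the 58 genes, 55 passed the filter on low values (a mean of at least 0.5 FPKM) in HCC4006 and 53 in HCC827. In HCC4006 4 of 55 were called (7.27%), against 9.36% of all 19881 rows tested. These were HDAC3 and KDM5A, higher and listed at 0 in DMSO, and SMARCA5 and SMARCE1, lower, while 6.37% of all rows were called higher and 2.98% lower. In HCC827 4 of 53 were called (7.55%), against 6.8% of all 19324 rows, namely SMARCA1, SMARCA2, SMARCB1 and HDAC7, all higher and the last 2 listed at 0 in DMSO, while 5.13% of all rows were called higher and 1.67% lower. The interaction of line and resistance was called by limma for 8 of 54 genes tested (14.8%), against 12.1% of all 20685 rows. The HCC827 change was the higher of the 2 for 5 of these genes and the lower for 3, against 6.27% and 5.82% of all rows. HDAC3, KDM5A, SMARCB1 and HDAC7, each listed at 0 in a DMSO group, account for 4 of the 8. These 4 genes passed the filter on low values through their other groups, so that their p-values follow from the listed zeros and show no change apart from them. The shares of members called lay near those of all rows in each comparison. The median change of the members was −0.28 in HCC4006, against −0.01 over all rows, and −0.10 in HCC827, against −0.04 over all rows. Over all rows 50.2% of changes were negative in HCC4006 and 52.5% in HCC827. Over rows above 0 in every library of the line, the median of the members was −0.28 in HCC4006 and −0.12 in HCC827. That of all such rows was −0.04 and −0.10.

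Fewer calls were left once rows with a 0 in any library of the fit were taken out. In HCC4006 0 of 52 members were then called by limma, against 0.534% of all rows, while 11 had an unadjusted p under 0.05. In HCC827 SMARCA1 was called, 1 of 50 members, against 0.119% of all rows. For the difference between the lines SMARCA1 and SMARCA2 were called, 2 of 49 members, against 1.45% of all rows.

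Groups of 2 libraries often lie apart without a call. Among members above 0 in all 4 libraries of HCC4006, the resistant libraries both lay above the DMSO libraries for 13 of 52 genes and both below for 17, while 22.7% and 28.3% of all such rows did so. In HCC827 the numbers were 11 and 10 of 50, with 20.2% and 26.3% over all rows. With a change of at least 2-fold besides, 2 members were higher and 6 lower in HCC4006 (6.8% and 9.2% of all rows), and 5 were higher and 4 lower in HCC827 (6.73% and 7.87% of all rows).

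Among members above 0 the largest changes were in the remodeler ATPases SMARCA1 and SMARCA2 in HCC827. SMARCA1 is the less widely expressed ISWI ATPase, a partner of nucleosome-spacing complexes. SMARCA2 (BRM) is an alternative to SMARCA4 (BRG1) as the motor of a SWI/SNF complex. The 250 bases before the RefSeq start of each gene are shown, since these are the 2 members above 0 with the largest changes in HCC827, with every CG, the dinucleotide on which DNMT and TET enzymes act, in capitals. The build is GRCh38.p14, whereas the expression tables use hg19. The SMARCA1 stretch is chrX:129523491-129523740 on the minus strand and that of SMARCA2 is chr9:2015097-2015346 on the plus strand, before the first of 4 starts listed for the gene.
SMARCA1: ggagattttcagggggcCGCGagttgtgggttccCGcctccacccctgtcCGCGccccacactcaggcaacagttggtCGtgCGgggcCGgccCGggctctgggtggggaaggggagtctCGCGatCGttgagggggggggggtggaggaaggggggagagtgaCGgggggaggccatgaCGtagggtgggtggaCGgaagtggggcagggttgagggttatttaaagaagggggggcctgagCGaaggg
SMARCA2: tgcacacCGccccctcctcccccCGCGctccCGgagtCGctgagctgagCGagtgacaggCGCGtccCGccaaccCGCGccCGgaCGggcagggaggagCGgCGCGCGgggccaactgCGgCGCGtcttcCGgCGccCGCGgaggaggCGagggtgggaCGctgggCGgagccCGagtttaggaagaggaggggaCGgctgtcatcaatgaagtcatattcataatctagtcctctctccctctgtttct
CG was searched in the letters shown and reads the same on both strands. The SMARCA1 stretch held 16, a number reached by 41.0% of 35116 RefSeq promoters of the same length, and the SMARCA2 stretch held 29, reached by 14.1%. The stretches before the paralogs SMARCA5 and SMARCA4 held 20 and 44, reached by 32.4% and 0.769% of promoters. Of the 58 genes, 52 were in the promoter table, with a median of 21.5 CG, against 11 over all promoters. These are counts of letters, and no methylation was measured.

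SMARCA1 (locus X:128580479-128657477 in hg19) was at 0.812 and 1.08 FPKM in HCC827 DMSO and at 89.6 and 45.2 FPKM in HCC827 resistant cells. Both resistant libraries lay far above both DMSO libraries, by 71.3-fold between the group means. That ratio rests on DMSO values far below the median of rows above 0 in those libraries (57.7 and 59.0 FPKM). The change was 5.48 on the log2 scale (SE 0.50, n = 2 against 2, limma adjusted p = 0.00457, or 0.0269 over rows above 0). In HCC4006 SMARCA1 was at 346 and 198 FPKM in DMSO and at 184 and 213 FPKM in resistant cells, and the groups overlapped. The difference between the lines was 5.88 (SE 0.60, limma adjusted p = 0.00136), and it was called without any 1 library, at adjusted p between 0.00356 and 0.0196. Within HCC827 alone the call was lost without DMSO library A (limma adjusted p = 0.136) or B (0.149), where 0 of all rows were called, and with a pseudocount of 5 the change was 3.54.

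SMARCA2 (locus 9:2015341-2193624) was at 1.20 and 0.795 FPKM in HCC827 DMSO and at 38.9 and 16.3 FPKM in HCC827 resistant cells. The resistant libraries again stood apart, at 27.7-fold the DMSO mean. That ratio too rests on DMSO values far below the median of rows above 0. The change was 4.12 on the log2 scale (SE 0.59, n = 2 against 2, limma adjusted p = 0.0235). In HCC4006 the gene was at 430.5 and 427.8 FPKM in DMSO and at 430.7 and 588.5 FPKM in resistant cells, a difference of 0.23 (adjusted p = 0.611 in limma). The difference between the lines was 3.89 (SE 0.62, limma adjusted p = 0.0102, or 0.0336 over rows above 0). Within HCC827 the call did not hold over rows above 0 (limma adjusted p = 0.0804) nor without any 1 library (0.079 to 0.313), and with a pseudocount of 5 the change was 2.35. The difference between the lines was lost with that pseudocount (2.12, limma adjusted p = 0.0529) and without HCC4006 resistant library A (0.0769) or B (0.0558) or HCC827 DMSO library B (0.0533).

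The paralogs that share these places did not show such shifts. SMARCA4 (19:11071597-11172958) was at 238 and 236 FPKM in HCC4006 DMSO, 199.9 and 263 FPKM in HCC4006 resistant, 462 and 296 FPKM in HCC827 DMSO and 324 and 365 FPKM in HCC827 resistant cells. Its groups overlapped in both lines, with log2 changes of −0.05 and −0.10. SMARCA4 exceeded SMARCA2 by 386-fold and 372-fold within the HCC827 DMSO libraries and by 8.32-fold and 22.4-fold within the HCC827 resistant ones. In HCC4006 the order was the other way, and SMARCA2 exceeded SMARCA4 by 1.81-fold in each DMSO library and by 2.15-fold and 2.24-fold in the resistant libraries. Likewise SMARCA5 exceeded SMARCA1 by 982-fold and 396-fold in HCC827 DMSO, by 7.72-fold and 10.4-fold in HCC827 resistant and by 1.46-fold to 3.54-fold in HCC4006 libraries. Even in resistant HCC827 cells, then, both ATPases stayed below their paralogs and below every HCC4006 library, although a level set across lines depends on the scale of each table.

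**Figure D2:**
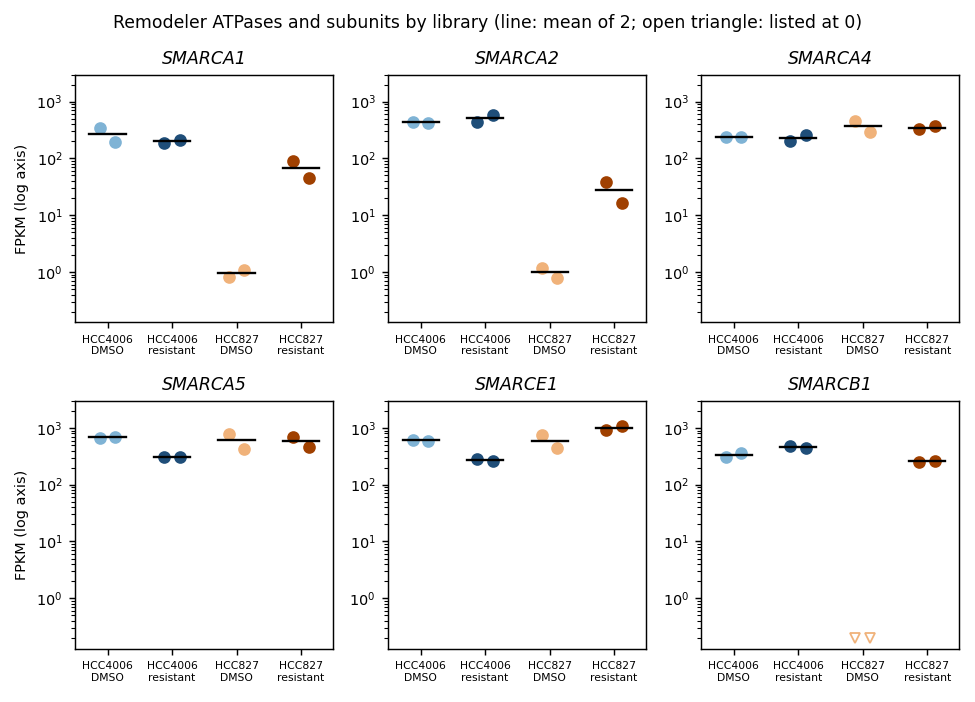
FPKM on a log axis of 6 SWI/SNF and ISWI genes in each library, with a line at the mean of the 2 libraries of a group and an open triangle for a value listed at 0. SMARCA1 and SMARCA2 lie near 1 FPKM in HCC827 DMSO and between 16.3 and 89.6 FPKM in HCC827 resistant cells, while SMARCA4 overlaps between the groups of each line.

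SMARCA5, the widely expressed ISWI ATPase, fell in HCC4006. It was at 672 and 701 FPKM in DMSO and at 305 and 311 FPKM in resistant cells (4:144434615-144478639), and the change was −1.16 (SE 0.18, n = 2 against 2, limma adjusted p = 0.0406). The DMSO mean was 2.23-fold the resistant mean. In HCC827 it was at 797 and 427 FPKM in DMSO and at 692 and 468 FPKM in resistant cells, where the groups overlapped. The difference between the lines was 1.12 and was not called (limma adjusted p = 0.229).

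SMARCE1, a DNA-binding subunit of SWI/SNF, fell by about as much. In HCC4006 it was at 606 and 595 FPKM in DMSO and at 280.1 and 264 FPKM in resistant cells (17:38781213-38821408), a change of −1.14 (SE 0.18, limma adjusted p = 0.0429). In HCC827 it was at 745 and 451 FPKM in DMSO and at 921 and 1079 FPKM in resistant cells, a difference of 0.78 that was not called (limma adjusted p = 0.359). The difference between the lines was 1.92 (SE 0.39, limma adjusted p = 0.0275, or 0.0749 over rows above 0). That call held without HCC827 DMSO library A or B and was lost without any 1 of the 6 other libraries, at adjusted p from 0.0551 to 0.125 in limma. Neither fall in HCC4006 was called over rows above 0 (limma adjusted p = 0.115 for SMARCA5 and 0.117 for SMARCE1), in a fit without the mean-variance trend (0.0688 and 0.0716), in 1 fit over all 8 libraries (0.113 and 0.0566) or without resistant library A (0.288 and 0.271) or B (0.284 and 0.297). SMARCE1 was also not called without DMSO library A. With a block by column letter neither fall was called, nor was SMARCE1 for the difference between the lines.

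SMARCB1, a core subunit of SWI/SNF and a tumour suppressor of rhabdoid tumours, was listed at 0 in both HCC827 DMSO libraries and at 252 and 264 FPKM in the resistant ones (22:24129149-24181315; limma adjusted p = 0.000515, and 0.0739 or 0.0609 without DMSO library A or B). DERL3, the other row on its locus, was at 0 in the same 2 libraries and in no other group. In HCC4006 SMARCB1 was at 310.0 and 369 FPKM in DMSO and at 476 and 439 FPKM in resistant cells, a difference of 0.43 (adjusted p = 0.325 in limma).

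SMARCD3, a subunit that is exchanged for SMARCD1 or SMARCD2 in SWI/SNF complexes of some tissues, was at 6.08 and 3.09 FPKM in HCC827 DMSO and at 30.3 and 10.8 FPKM in resistant cells. The resistant libraries lay above the DMSO libraries, by 4.49-fold between means, but the gene was not called (log2 1.94, SE 0.67, limma adjusted p = 0.237). In HCC4006 it was at 204 FPKM in DMSO library A, 36.6 FPKM in DMSO library B and 64.2 and 72.4 FPKM in the resistant libraries, which lay between the DMSO values. The order of levels in the family depended on the group. By group mean SMARCA5 was highest in HCC4006 DMSO (687 FPKM) and HCC827 DMSO (612 FPKM, with SMARCE1 at 598 FPKM and overlapping libraries), SMARCA2 in HCC4006 resistant (509.6 FPKM) and SMARCE1 in HCC827 resistant cells (999.8 FPKM). ARID2 was lowest in both HCC4006 groups (51.5 and 59.3 FPKM) and SMARCD3 in HCC827 resistant cells (20.6 FPKM). In HCC827 DMSO SMARCA1 and SMARCA2 lay below SMARCD3 (4.58 FPKM), and SMARCB1 was listed at 0.

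Over the 14 remodeler genes the HCC4006 log2 change was negative for 10 and positive for 4, with a median of −0.35, where 50.2% of all rows were negative. In 7 of the 14 both resistant libraries lay below both DMSO libraries, as they did for 28.3% of all rows. Beside SMARCA5 and SMARCE1 these were the scaffold genes SMARCC1 (425 and 434 against 315 and 356 FPKM) and SMARCC2 (205 and 142 against 115 and 139.9 FPKM), the accessory SMARCD1 and SMARCD2, and ARID1A, a subunit often mutated in cancer. None of these 5 was called, and their log2 changes ran from −0.71 to −0.29. SMARCC1 exceeded SMARCC2 in all 8 libraries, by 2.07-fold to 4.37-fold, and ARID1A exceeded ARID1B in all 8, by 1.74-fold to 4.43-fold. In HCC827 8 of the 13 genes above 0 in all 4 libraries had a negative change, with a median of −0.09. Of all such rows 56.1% were negative.

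**Figure D3:**
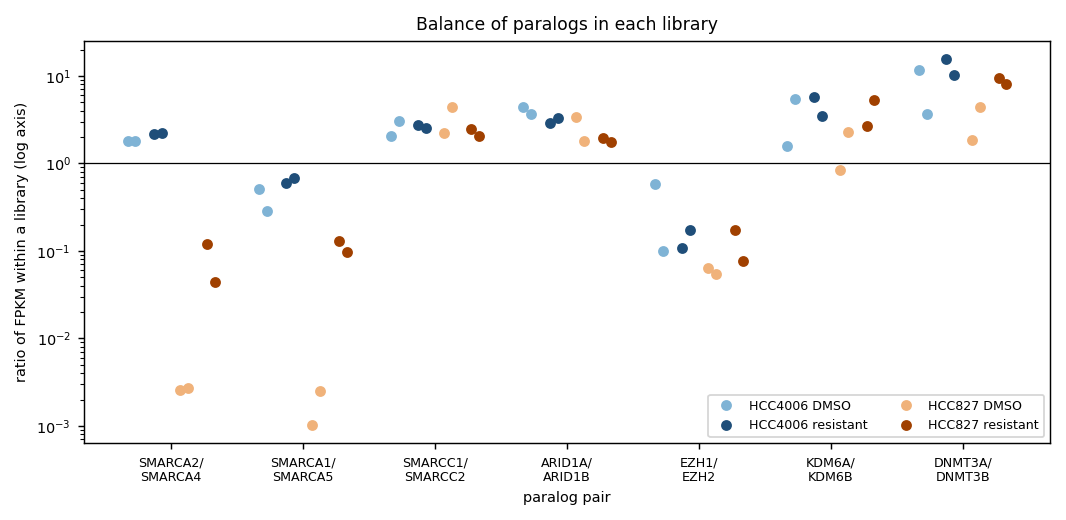
Ratio of FPKM of paralogs within each library, on a log axis with a line at 1, coloured by group. SMARCA2/SMARCA4 and SMARCA1/SMARCA5 lie below 0.01 in the HCC827 DMSO libraries and above 0.04 in the HCC827 resistant libraries, while SMARCC1/SMARCC2 lies between 2.07 and 4.37 in every library.

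Among the histone deacetylases, HDAC1, the catalytic subunit of several corepressor complexes, had the highest level. It averaged 994 FPKM over the HCC4006 libraries (819 to 1280) and 1305 FPKM over the HCC827 libraries (1047 to 1725), with overlapping groups in both lines. No ratio to HDAC2, its usual partner, could be formed. HDAC3, the deacetylase of the NCoR complex, was listed at 0 in the 2 DMSO libraries of HCC4006 and in all 4 HCC827 libraries, and at 353 and 651 FPKM in HCC4006 resistant cells (5:140894582-141061793; limma adjusted p = 0.000862). Its locus holds 7 other rows, among them DIAPH1. All 7 were at 0 wherever HDAC3 was, and 5 of them were above 0 in HCC4006 resistant cells.

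The class IIa deacetylases HDAC4, HDAC5, HDAC7 and HDAC9 shuttle between nucleus and cytoplasm. HDAC7 was at 323 and 263 FPKM in HCC4006 DMSO and at 144 and 159 FPKM in resistant cells (12:48165950-48214356), a difference of −0.94 that was not called (limma adjusted p = 0.1). In HCC827 it was listed at 0 in both DMSO libraries and at 207 and 157 FPKM in the resistant ones (limma adjusted p = 0.000575). SLC48A1, the other row of its locus, was at 0 in the same 2 libraries. Without DMSO library A or B the HCC827 call was lost (limma adjusted p = 0.0739 and 0.0609).

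HDAC4 (2:239969863-240324058) had differences of opposite sign in the lines and was called in neither. It was at 19.0 and 29.2 FPKM in HCC4006 DMSO and at 41.3 and 60.6 FPKM in HCC4006 resistant cells, a difference of 1.07. In HCC827 it was at 64.3 and 47.0 FPKM in DMSO and at 31.4 and 15.7 FPKM in resistant cells, a difference of −1.29. The groups did not overlap in either line, and the test of the difference between the lines gave −2.36 (SE 0.63, limma adjusted p = 0.0661).

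HDAC9 (7:18126571-19036993) was at 167 and 105 FPKM in HCC4006 DMSO and at 302 and 247 FPKM in resistant cells, a difference of 1.04 (adjusted p = 0.172 in limma), and in HCC827 at 253 and 382 FPKM against 273 and 107 FPKM, with overlap. HDAC5 (17:42154120-42201014) was at 91.0 and 34.1 FPKM in HCC4006 DMSO and at 20.9 and 21.3 FPKM in resistant cells, a difference of −1.38 (adjusted p = 0.261 in limma). In HCC827 it was at 28.4 and 34.9 FPKM against 41.2 and 17.4 FPKM, with overlap.

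HDAC6, a mostly cytoplasmic tubulin deacetylase, was at 44.5 and 34.5 FPKM in HCC827 DMSO and at 132 and 105 FPKM in resistant cells (X:48659783-48683392). The groups stood apart, with a ratio of means of 3.00, and the change of 1.58 (SE 0.32) missed the threshold (limma adjusted p = 0.073). It was called only after scaling each library to its median (1.69, limma adjusted p = 0.0431), and not over rows above 0 (0.196), in 1 fit over 8 libraries (0.276) or without any 1 library (0.205 to 0.368). In HCC4006 DMSO it was at 337 FPKM in library A and 71.2 FPKM in library B, and at 190.8 and 269.9 FPKM in resistant cells. HDAC11, the class IV deacetylase (3:13518481-13547916), was at 38.2 and 14.6 FPKM in HCC827 DMSO and at 74.9 and 48.5 FPKM in resistant cells, a difference of 1.33 (adjusted p = 0.329 in limma) that was 2.01 without DMSO library A and 0.65 without B.

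In HCC4006 DMSO HDAC11 was at 104 FPKM in library A and 24.1 FPKM in library B, and at 21.4 and 22.9 FPKM in resistant cells. HDAC5, HDAC6 and HDAC11, and among others HDAC10, SMARCD3 and KDM6B, lay higher in HCC4006 DMSO library A than in B by at least 2-fold. Others, among them DNMT1, EED and EZH2, lay higher in B by at least 2-fold. Of 52 members 33 were higher in A, with a median difference of 0.08 log2, against 0.04 over all rows. Without DMSO library B, HDAC5 and HDAC11 were called lower in resistant HCC4006 cells (−2.08 and −2.21 on the log2 scale, limma adjusted p = 0.0366 and 0.0365). Without DMSO library A the differences were −0.68 and −0.12 (adjusted p = 0.145 and 0.662 in limma), so that the DMSO libraries decide whether they count as changed. Over rows above 0 in every library of the line, 4 of 9 deacetylases had a positive change in HCC4006 and 5 of 8 in HCC827. Of all such rows 52.2% were negative in HCC4006 and 56.1% in HCC827.

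**Figure D4:**
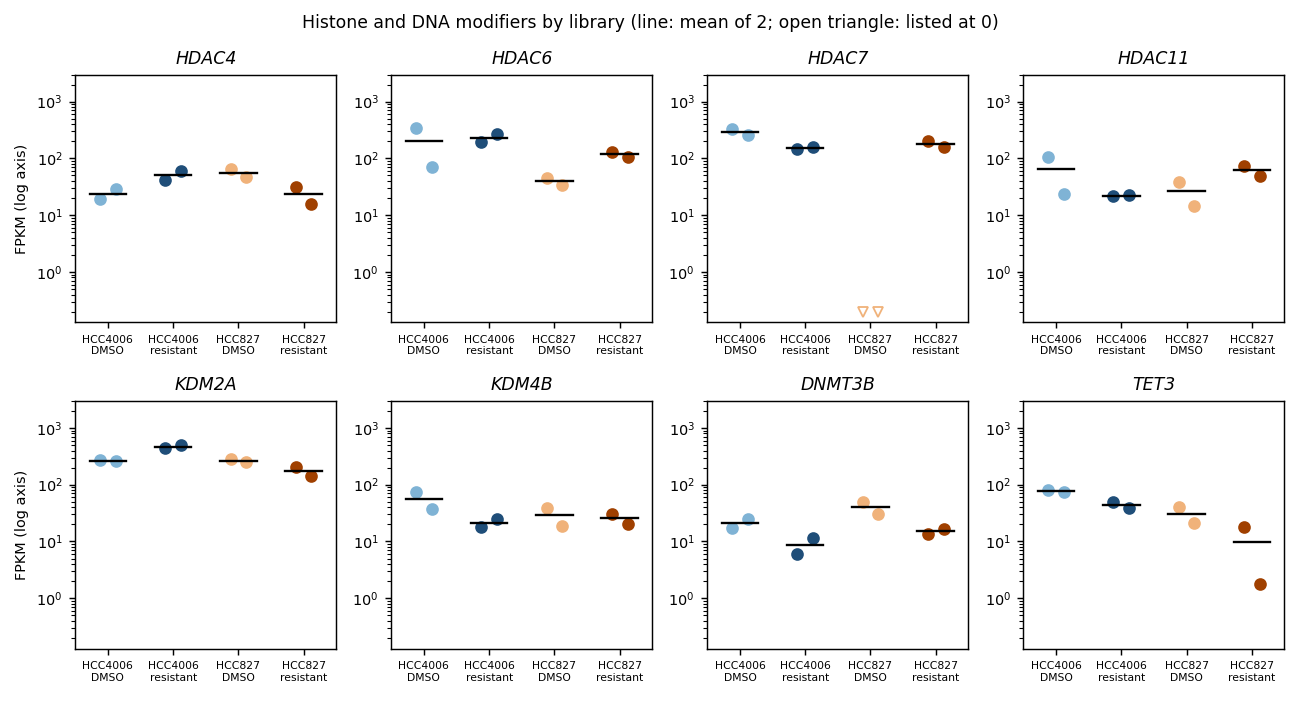
FPKM on a log axis of 8 histone and DNA modifier genes in each library, with a line at the mean of the 2 libraries of a group and an open triangle for a value listed at 0. HDAC4 is higher in resistant than in DMSO libraries of HCC4006 and lower in those of HCC827, and DNMT3B and TET3 are lower in resistant libraries of both lines.

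The sirtuins are NAD-dependent deacylases of the nucleus, cytoplasm and mitochondria. None of the 7 was called by limma in either line or for the difference between the lines, with 0 at an unadjusted p under 0.05 in each. Without SIRT4, which had libraries at 0, 5 of 6 changes were negative in HCC4006, with a median of −0.38. In HCC827 4 of 6 were positive, with a median of 0.16. Of all rows above 0 in every library of the line, 52.2% were negative in HCC4006 and 56.1% in HCC827. SIRT7, a nucleolar member, had the highest group mean of the family except in HCC827 DMSO, where SIRT2 was at 94.4 and SIRT7 at 81.2 FPKM. SIRT7 was at 211 and 153 against 119 and 129 FPKM in HCC4006 and at 80.0 and 82.4 against 72.4 and 136 FPKM in HCC827, each pair DMSO before resistant. SIRT4, a mitochondrial member, had the lowest, between 0 and 7.73 FPKM. SIRT1, a nuclear deacetylase, was the only sirtuin with both HCC4006 resistant libraries (131 and 112 FPKM) above both DMSO libraries (66.8 and 88.4 FPKM), a difference of 0.65 (adjusted p = 0.246 in limma).

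Among the lysine demethylases KDM2A, which acts on methylated H3 lysine 36 and binds unmethylated CG, had differences of opposite sign in the lines. It was at 267 and 264 FPKM in HCC4006 DMSO and at 435 and 505 FPKM in HCC4006 resistant cells (11:66886739-67025141), a difference of 0.82 (SE 0.19, adjusted p = 0.107 in limma). In HCC827 it was at 278 and 248 FPKM in DMSO and at 207 and 143 FPKM in resistant cells, a difference of −0.61 (SE 0.32, adjusted p = 0.41 in limma). The libraries did not overlap in either line. The change differed between the lines by −1.43 (SE 0.34, limma adjusted p = 0.0488). That call was lost over rows above 0 (limma adjusted p = 0.122), with a pseudocount of 5 (0.0513) and without the trend (0.0778). It was also lost with a block by column letter and without any 1 library except HCC827 resistant A.

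KDM5A, a demethylase of methylated H3 lysine 4 known for its part in drug-tolerant lung cancer cells, was listed at 0 in both HCC4006 DMSO libraries and at 49.8 and 63.8 FPKM in the resistant ones (12:389222-551811; limma adjusted p = 0.00125). CCDC77, the other row of its locus, was at 0 in the same 2 libraries. In HCC827 KDM5A was at 112 and 82.4 FPKM in DMSO and at 110.0 and 70.7 FPKM in resistant cells, a difference of −0.12 (adjusted p = 0.893 in limma) with overlapping groups. Whether the gene rose in HCC4006 thus rests on values listed at 0.

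KDM4B, a demethylase of methylated H3 lysine 9, was at 75.3 and 37.0 FPKM in HCC4006 DMSO and at 18.0 and 24.7 FPKM in resistant cells (19:4675237-5153606), a difference of −1.31 (adjusted p = 0.212 in limma). In HCC827 its groups overlapped, at 39.6 and 18.6 against 30.5 and 20.3 FPKM. KDM1A (LSD1), the flavin-dependent demethylase of the CoREST complex, had the highest level of the family, a mean of 504 FPKM in HCC4006 (374 to 675) and 519 FPKM in HCC827 (205 to 754), and its groups overlapped in both lines. KDM4D was low, at 5.71 to 9.26 FPKM in HCC4006 and 7.76 to 19.0 FPKM in HCC827.

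KDM6A and KDM6B oppose PRC2 by removing methyl groups from H3 lysine 27. KDM6A was at 48.1 and 73.4 FPKM in HCC827 DMSO and at 120.4 and 94.7 FPKM in resistant cells, a difference of 0.84 without overlap (adjusted p = 0.323 in limma), and at 174 and 133 against 164 and 129.9 FPKM in HCC4006. KDM6B was at 111 and 24.1 against 28.7 and 37.0 FPKM in HCC4006 and at 57.7 and 32.0 against 45.5 and 17.9 FPKM in HCC827, with overlap in both lines. KDM6A exceeded KDM6B in 7 of 8 libraries. Over rows above 0 in every library of the line, 10 of 13 demethylases had a negative change in HCC827, with a median of −0.25. In HCC4006 7 of 13 did. Of all such rows 56.1% did in HCC827 and 52.2% in HCC4006. In HCC827 library A lay above library B by a median of 0.35 log2 over the members in each group, against 0.11 (DMSO) and 0.00 (resistant) over all rows, and the part of this in the HCC827 results was not tested.

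PRC2 writes methylation of H3 lysine 27 through EZH1 or EZH2, held by SUZ12 and EED. None of the 4 genes was called by limma, with 0 at an unadjusted p under 0.05 in either line, and in 3 of 4 the groups overlapped in each line. EZH2 was at 63.4 and 183 FPKM in HCC4006 DMSO, 159.7 and 141 FPKM in HCC4006 resistant, 209 and 195 FPKM in HCC827 DMSO and 112 and 203 FPKM in HCC827 resistant cells. EED had the highest level of the 4, with a mean of 249.8 FPKM in HCC4006 and 203 FPKM in HCC827. EZH1 had the lowest, at 36.6 and 18.1 against 17.1 and 24.4 FPKM in HCC4006 and at 13.2 and 10.7 against 19.6 and 15.4 FPKM in HCC827. EZH2 exceeded EZH1 in all 8 libraries, by 1.73-fold in HCC4006 DMSO library A and by 5.70-fold to 18.2-fold in the others.

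DNMT3B, a de novo DNA methyltransferase, was lower in the resistant libraries of both lines. It was at 17.3 and 24.6 FPKM in HCC4006 DMSO and at 6.02 and 11.7 FPKM in resistant cells, and at 49.3 and 30.4 FPKM in HCC827 DMSO and at 13.6 and 16.8 FPKM in resistant cells (20:31350190-31397162). The groups did not overlap in either line, and neither difference was called (−1.25, SE 0.44, limma adjusted p = 0.218 in HCC4006; −1.33, SE 0.40, limma adjusted p = 0.184 in HCC827). DNMT3A, the other de novo enzyme, was at 204 and 89.3 against 93.9 and 118 FPKM in HCC4006 and at 92.2 and 133 against 127 and 137 FPKM in HCC827, with overlap in both lines. DNMT3A exceeded DNMT3B in all 8 libraries, by 1.87-fold and 4.37-fold in HCC827 DMSO and by 9.35-fold and 8.17-fold in HCC827 resistant cells. DNMT1, the maintenance enzyme, was at 113 and 323 against 238 and 291 FPKM in HCC4006 and at 596 and 409 against 233 and 290.3 FPKM in HCC827, a difference of −0.92 in HCC827 (adjusted p = 0.253 in limma).

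TET3 was also lower in the resistant libraries of both lines without being called. It was at 80.6 and 75.9 FPKM in HCC4006 DMSO and at 49.0 and 38.8 FPKM in resistant cells, a difference of −0.83 (adjusted p = 0.143 in limma), and at 40.4 and 21.0 FPKM in HCC827 DMSO and at 17.6 and 1.82 FPKM in resistant cells, a difference of −2.19 (SE 1.08, adjusted p = 0.384 in limma; 2:74213652-74329698). The HCC827 value rests on resistant library B, and without it the difference was −0.71. TET1, the lowest of the 3, was at 2.28 and 3.97 against 4.72 and 5.46 FPKM in HCC4006 and at 4.11 and 3.39 against 1.82 and 1.22 FPKM in HCC827 (10:70320412-70454239). It thus lay above DMSO in 1 line and below it in the other, and the difference between the lines was not called (limma adjusted p = 0.109). TET2, often mutated in blood cancers, was at 31.5 and 24.2 against 43.5 and 30.4 FPKM in HCC4006. In HCC827 it was at 51.1 and 25.9 against 45.8 and 14.1 FPKM, and its groups overlapped in both lines. Beside DNMT3B and TET3, KDM2B (log2 changes of −0.66 in HCC4006 and −0.70 in HCC827) and SMARCD1 (−0.71 and −0.25) were lower in the resistant libraries of both lines. Neither was called. KDM3B (0.17 in HCC4006 and 0.35 in HCC827) and SMARCA2 (0.23 and 4.12) were higher in the resistant libraries of both lines. Among all rows above 0, resistant libraries lay below DMSO in 28.3% in HCC4006 and 26.3% in HCC827. They lay above in 22.7% and 20.2%. The share of all rows apart the same way in both lines was not counted, so no shared change is read from these genes.

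**Figure D5:**
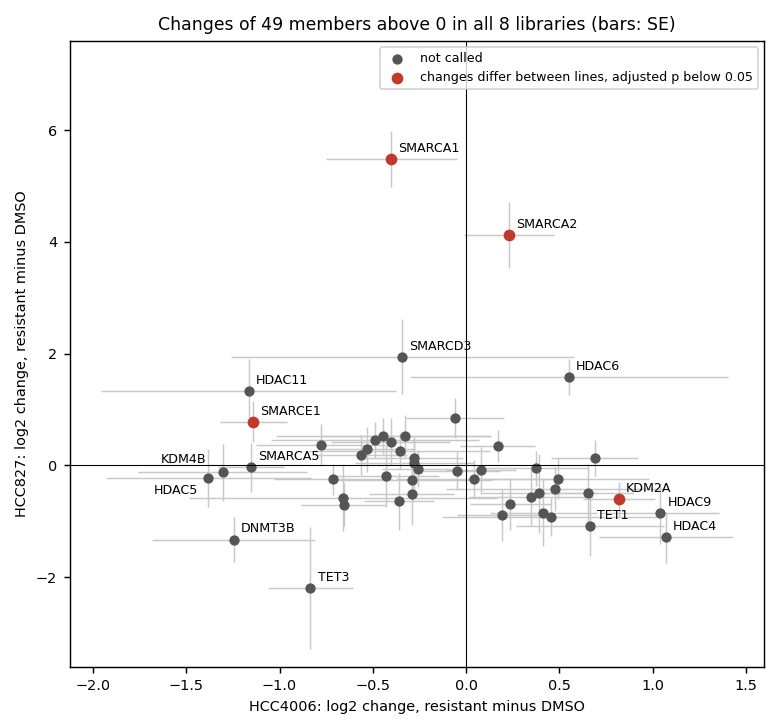
Log2 change (resistant minus DMSO) in HCC4006 on the x axis and in HCC827 on the y axis for the 49 genes above 0 in all 8 libraries, with bars for the SE. Genes whose change differed between the lines at an adjusted p below 0.05 are red: SMARCA1 and SMARCA2 stand high, SMARCE1 left and KDM2A to the lower right.

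Partners of these families were counted in 8 further lists of genes, where 9.36% of all rows were called in HCC4006 and 6.8% in HCC827. Of 25 Polycomb partners tested in HCC4006 and 26 in HCC827, 0 were called in either line, with 3 at an unadjusted p under 0.05 in each. Among partners of the NuRD, SIN3, CoREST and NCoR complexes 1 of 20 was called in HCC4006, SAP30, a SIN3 subunit, which was at 39.7 and 40.6 FPKM in DMSO and at 109 and 107 FPKM in resistant cells. Its change was 1.42 (SE 0.19, limma adjusted p = 0.0292, or 0.116 over rows above 0). In HCC827 SAP30 was at 205 and 125 against 68.4 and 121 FPKM, and 0 of 20 genes of that list were called, with 4 at an unadjusted p under 0.05.

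All other calls among the partners came from genes listed at 0 in both DMSO libraries of the line. They were 2 of 22 lysine methyltransferases in HCC4006 (SETD8, SETDB2) and 1 of 22 in HCC827 (SETD8), 1 of 10 acetyltransferases in HCC4006 (NCOA3), 1 of 13 further BAF and PBAF subunits in HCC827 (BRD9, whose row also names ZDHHC11), 1 of 18 further remodelers in each line (CHD6), 1 of 7 DNA methylation partners in HCC827 (ZBTB38), and 1 of 8 and 2 of 7 further JmjC proteins (JMJD1C in both lines, HIF1AN in HCC827). The lists with 0 calls were acetyltransferases in HCC827 (10 tested, 0 at an unadjusted p under 0.05 in limma), further BAF and PBAF subunits in HCC4006 (12 tested, 2) and DNA methylation partners in HCC4006 (7 tested, 0). Over rows above 0 in every library of the line, 18 of 21 methyltransferases had a negative change in HCC827, with a median of −0.37. In HCC4006 8 of 20 did, with a median of 0.11. The acetyltransferases had medians of −0.56 in HCC827 (10 genes) and 0.18 in HCC4006 (9 genes). Of all such rows 56.1% were negative in HCC827 and 52.2% in HCC4006, with medians of −0.10 and −0.04.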

How the data were processed

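RNA of 8 libraries was analysed, 2 in each of 4 groups taken from the labels. RNA was extracted with miRNeasy and prepared with TruSeq RNA v2, which does not mark strand, per the labels' protocols. The authors deposited FPKM per gene row in 2 tables, 1 per line. Build hg19, Cuffdiff, Cufflinks 1.3.0 and TopHat 1.4.1 appear in the submitters' processing notes; the annotation is not given in the sources used here. Loci are given as the tables write them and can span several genes. FPKM keep no counts, so that no counting interval can be given. Whether both tables share 1 normalization is not stated, and changes were therefore taken within a line. There were 0 per-sample columns left unused. Column letters are not tied to the replicate numbers of the labels.

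From these values log2(FPKM + 0.5) was computed and tested with limma 3.58.1 (R 4.3.3; lmFit, eBayes with trend) on rows with a mean of at least 0.5 FPKM, with Benjamini-Hochberg adjustment over all rows. Each line was fitted on its 4 libraries, and the difference between the lines on all 8. Such log2 differences understate the change of low genes. The test was also run on data simulated with normal noise from rows above 0 in all 4 libraries of a line. It called 1.52%, 39.4% and 91.0% of genes changed by 1, 2 and 4 log2 units in HCC4006 (16433 genes). In HCC827 it called 0%, 47.8% and 97.0% (15858 genes). Of the unchanged genes it called 9 in HCC4006 and 10 in HCC827. Rows with a 0 were not simulated, so that these shares do not describe calls on such rows. Alternatives were pseudocounts of 0.1 and 5, no filter or a mean of at least 2 FPKM, rows above 0 only, quantile or median scaling, no trend, a block by column letter, 1 fit over 8 libraries, rows with 1 name, and leaving out each library.

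Values in every library are given for members called and for members changed at least 2-fold with groups apart. Paralog pairs and the highest and lowest of each family are given by library values, ratios, means or ranges. Other members named were singled out after their values were seen. Members and lists were chosen with earlier results of these data known. A further KDM gene and a marker gene are not reported here, and levels of KDM5D, on the Y chromosome, are not given. Of the marker and partner lists KRT18, PECAM1 and KMT2B were not matched. Promoter sequences are RefSeq's (GRCh38.p14).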

Additional observations from a re-analysis of the deposited data

Results flagged for a closer look

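Limma's interaction over 8 libraries (HCC827 change minus HCC4006 change) was called for 8 members, of which SMARCA1 and SMARCA2 were also called over rows above 0. In 4 of the 8 all groups were above 0: SMARCA1 (5.88 on the log2 scale), SMARCA2 (3.89), SMARCE1 (1.92) and KDM2A (−1.43). SMARCA1 and SMARCA2 were near 1 FPKM in HCC827 DMSO alone, SMARCE1 was lower in resistant HCC4006 libraries alone, and KDM2A had differences of opposite sign, neither called within its line. The other 4 were listed at 0 in a whole group and passed the filter on low values through their other groups, so that the limma adjusted p follows from the listed zeros and shows no difference apart from them: SMARCB1 (1.97e-05) and HDAC7 (2.57e-05), at 0 in HCC827 DMSO, and HDAC3 (9.78e-05) and KDM5A (0.000203), at 0 in HCC4006 DMSO, HDAC3 also in all HCC827 libraries, so that its value restates the HCC4006 one. At least 1 other row on the locus of each of these 4 was at 0 in the same libraries.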

How the results depend on the processing

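The number of members called was 4 in HCC4006, 4 in HCC827 and 8 for the difference between the lines. Over rows above 0 in every library these were 0, 1 and 2. In HCC4006 the number was 2 without the trend, with the replicate block of column letters and in 1 fit over 8 libraries. Whether the letters pair the libraries is not stated, and a correlation over rows cannot settle it. Deviations of A and B correlated at −0.077 in HCC4006 and 0.20 in HCC827. The block gave 4 calls in HCC827 and 6 for the difference between the lines. Leaving out 1 library gave 2 to 6 calls in HCC4006 (2 without either resistant library, 6 without DMSO library B), 0 to 3 in HCC827 (0 without either DMSO library) and 5 to 10 for the difference. In such fits the lone library is assumed to vary like the other groups. For single genes, 372 of 422 alternative values kept their side of the threshold. Another 47 lost the call, 3 gained it and 0 changed direction. The 422 values also cover genes not called in the main fit and the 4 genes whose calls follow from listed zeros. The share kept is therefore not that of the called genes above 0. Quantile normalization moved the median change of all rows from −0.01 to −0.19 in HCC4006 and from −0.04 to −0.24 in HCC827 without changing which members were called. The depth of the libraries is unknown, so that what it limits cannot be given.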

Other observations

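Among Polycomb partners, whose lists had no call in either line, the interaction of line and resistance was called for 2 of 26 genes tested (7.69%), against 12.1% of all rows. RING1, a ubiquitin ligase subunit of PRC1, was at 882 and 666 FPKM in HCC4006 DMSO and at 490.2 and 443 FPKM in resistant cells, and at 98.6 and 75.6 against 145 and 149 FPKM in HCC827 (log2 difference of the changes 1.48, SE 0.34, limma adjusted p = 0.0404, or 0.112 over rows above 0). CBX2, a chromobox reader of PRC1, was at 7.30 and 6.62 against 10.0 and 15.8 FPKM in HCC4006 and at 30.4 and 20.2 against 6.81 and 5.94 FPKM in HCC827 (−2.70, SE 0.51, limma adjusted p = 0.0206, or 0.0729 over rows above 0). For both genes the DMSO and resistant libraries did not overlap in either line, and the differences had opposite signs in the lines.

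SETD8, a methyltransferase of H4 lysine 20, JMJD1C, a JmjC domain protein, and CHD6, a CHD remodeler, were listed at 0 in both DMSO libraries of both lines and above 0 in all 4 resistant libraries. SETD8 was at 230.2 and 293 FPKM in HCC4006 resistant and at 75.0 and 129.6 FPKM in HCC827 resistant cells. JMJD1C was at 121 and 83.3 FPKM and at 102 and 90.2 FPKM, and CHD6 at 38.9 and 52.3 FPKM and at 82.4 and 20.5 FPKM. Since a 0 can be a failed estimate in these tables, no size of change is given for them.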
